A study of Danio rerio with 32 samples.

Results

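The comparison described here sets livers of nrf2 knockout (KO) zebrafish larvae against livers of wild-type (WT) larvae, both kept in the solvent dimethyl sulfoxide (DMSO) and taken at 12 h. It rests on 4 KO and 4 WT libraries, which are 8 of the 32 libraries of the series, chosen by their labels of genotype, treatment and time. The other groups of the series, also of 4 libraries each, are KO and WT livers under DMSO at 24 h and under acetaminophen (APAP) at 12 h and 24 h. They enter the same model fit and are used to see whether a difference recurs. Each library was made from 20 pooled livers, so the spread between libraries is a spread between pools and not between animals. The labels give the genotype only as wild-type or nrf2KO. They do not give the allele, the copy that was mutated, the strain, the larval age, the DMSO concentration or the parents of either genotype, so the knockout and any other inherited difference between the KO and WT stocks cannot be told apart.

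Nrf2 is a transcription factor of the cap'n'collar family. In unstressed cells Keap1 holds it for degradation, and oxidants or electrophiles release it to bind antioxidant response elements together with a small Maf protein. Its known targets make glutathione, thioredoxin-system enzymes, NADPH and conjugating enzymes, and the liver uses them to handle reactive metabolites. Zebrafish carry a pair of Nrf2 genes, nfe2l2a and nfe2l2b. Under DMSO no APAP is given, so this comparison asks which transcripts differ between the genotypes without the drug.

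Of 11384 genes tested, 28 were called between KO and WT livers, which is 0.246% of the genes. A called gene has a Benjamini-Hochberg adjusted p under 0.05 in edgeR's quasi-likelihood F-test. In KO livers 16 genes (0.141%) were higher and 12 (0.105%) were lower. Of the 12 lower genes, 9 were nearly absent from KO livers, with log2 fold changes (KO over WT) of -4.75 or below. The higher genes were led by 4 that were near zero in WT, followed by metabolic enzymes and by small mitochondrial and redox proteins with log2 fold changes between 1.07 and 2.61. Levels are in CPM, read counts scaled to the size and composition of the library, given for replicates 1 to 4 in that order where all are listed. Fold changes carry a standard error (SE), and n is 4 per group throughout.

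Among the 8 libraries, total counts ran from 4333187 to 6298523. WT replicate 2 detected 8815 genes and KO replicate 3 detected 9703, against a median of 12096 over the series. WT replicate 1 had 66.3% of its reads assigned to genes and 3.69% of its counts from the mitochondrial genome. The other 7 libraries had 73.3% to 78.5% and 4.69% to 7.40%. Hepatocyte markers took 5.72% to 10.9% of counts in KO and 5.85% to 9.94% in WT, and 9 of the 10 markers were detected in all 8 libraries. The levels of fabp10a (ENSDARG00000038439), the liver fatty acid binding protein gene, were 4584 to 13586 CPM in KO and 5165 to 17924 CPM in WT, so the liver label matched the transcripts. Without the 3 libraries of the series with the fewest genes (WT replicate 2 and KO replicate 3 here, and 1 KO library under APAP) 68 genes were called, 44 higher and 24 lower, and they included 26 of the 28.

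The calls depended on single libraries. Of the 28 genes, 27 kept the sign of their fold change in each of 17 alternative settings. ENSDARG00000100614 kept it in the 15 that gave it a value. The KO and WT levels did not overlap for any of the 28 genes, so refits of the same counts could hardly turn a sign. The kept signs are therefore no separate evidence of direction. In 8 of these 17 settings 1 of the 8 libraries was left out. With KO replicate 1, 2, 3 or 4 left out, 15, 12, 20 and 22 of the 28 stayed called. With WT replicate 1, 2, 3 or 4 left out, 18, 14, 13 and 14 stayed called. The 9 genes called whichever of the 8 libraries was left out were zgc:171470, grna.2, si:dkeyp-73d8.6, SLC27A1, ENSDARG00000077872, cyp2p9, AGXT2, ndufc1 and TXN. Of these, grna.2, si:dkeyp-73d8.6 and ENSDARG00000077872 were the 3 genes called in all 17 settings. At the other end, SYNCRIP was called in none of the 8 fits with a library left out, with adjusted p between 0.0734 and 0.197 in edgeR. The call of adh8b ended without KO replicate 2 (adjusted p = 0.299 in edgeR), which holds its highest value.

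**Figure D1:**
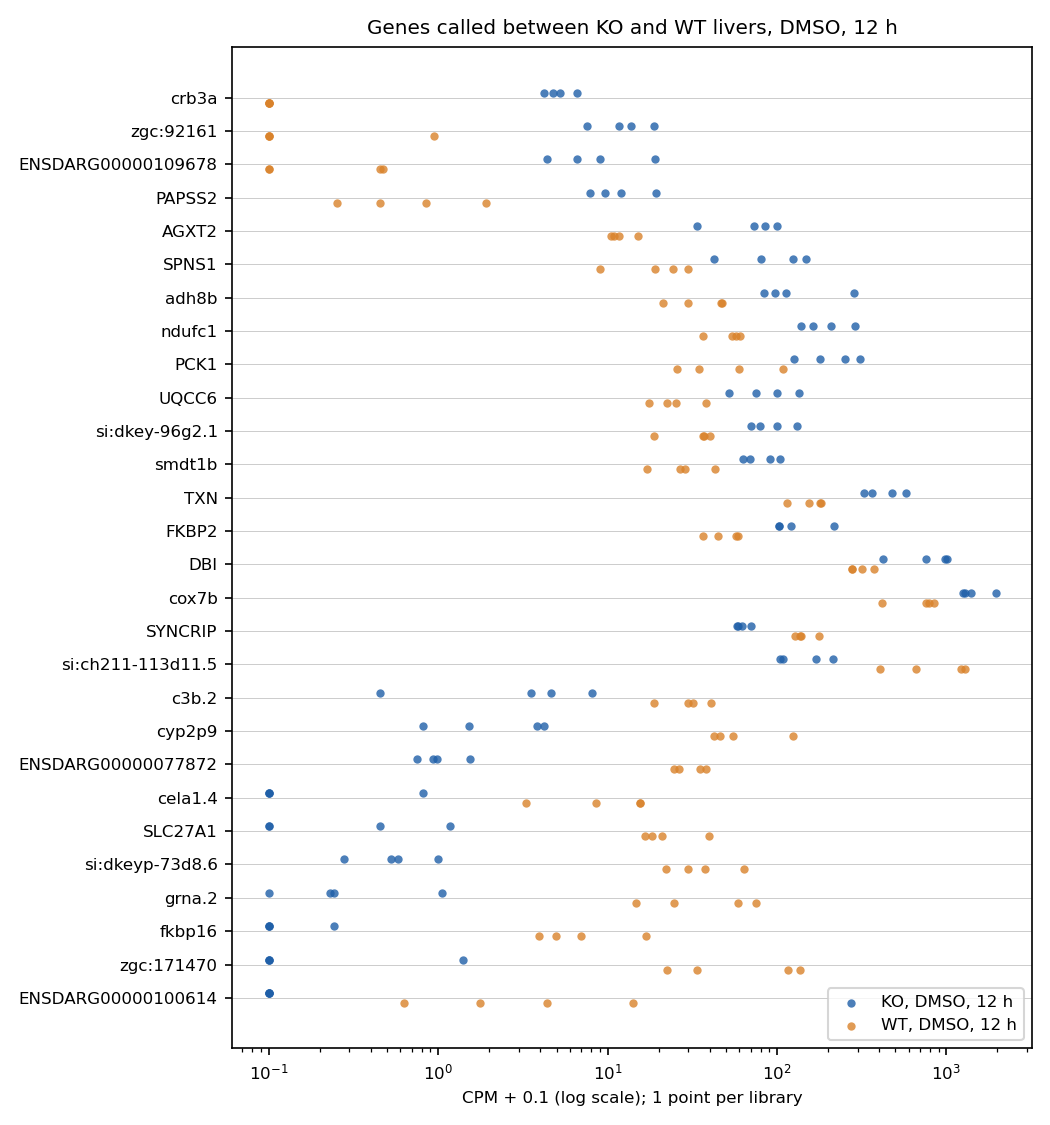
CPM + 0.1 on a log axis for the 28 called genes, with 1 point per library for KO (blue) and WT (orange) livers under DMSO at 12 h. The groups do not overlap for any of the 28 genes, which were selected by the test on these libraries, and for 5.82% of all genes. The bottom genes sit at or near the left edge in KO while the top 4 do so in WT.

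The targeted gene was examined first. NFE2L2 (ENSDARG00000042824), which the table uses as the symbol for nfe2l2a, had 43.4, 37.1, 40.4 and 40.6 CPM in KO and 36.4, 56.7, 29.8 and 32.1 CPM in WT. The groups overlapped, and the log2 fold change was 0.06 ± 0.38. nfe2l2b (ENSDARG00000089697) had 1.96 to 7.87 CPM in KO and 0 to 3.00 CPM in WT, with a log2 fold change of 1.58 ± 1.04 that was not called (adjusted p = 0.968, edgeR). Total transcript does not show a small deletion or an altered reading frame, so these levels check neither the label nor the mutated copy. Both Keap1 genes, which encode the adaptor that holds Nrf2, overlapped between the genotypes as well: keap1a (ENSDARG00000016132) had log2 fold change 0.06 ± 0.51 and KEAP1 (ENSDARG00000074634) -0.19 ± 0.55.

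A first set of genes was present in WT livers and nearly absent from KO livers. zgc:171470 (ENSDARG00000057844), a gene with a placeholder name, had 22.2, 33.4, 116.7 and 136.9 CPM in WT and 0, 1.31, 0 and 0 CPM in KO. Reads of this gene were thus found in a single KO library, and its log2 fold change was -7.64 ± 0.85 (adjusted p = 3.59e-07, edgeR). With a library left out this value ran from -11.7 to -7.20, so its size is uncertain beyond the SE. cyp2p9 (ENSDARG00000022631) encodes a cytochrome P450 of family 2, a group of monooxygenases that oxidise drugs and lipids. It had 45.8, 125.1, 42.6 and 55 CPM in WT and 3.75, 1.43, 4.10 and 0.718 CPM in KO. Every KO library was far below every WT library, and the log2 fold change was -4.75 ± 0.55 (adjusted p = 5.28e-07, edgeR). Of the other members of the subfamily, cyp2p6 (ENSDARG00000042978) had log2 fold change -0.95 ± 0.62 and cyp2p7, cyp2p8 and cyp2p10 lay between -0.77 and 1.06, none of them called.

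The next genes by p were si:dkeyp-73d8.6, grna.2 and SLC27A1. si:dkeyp-73d8.6 (ENSDARG00000079589), a further placeholder name, had 37.6, 29.9, 22.2 and 63.7 CPM in WT and 0.905, 0.477, 0.178 and 0.431 CPM in KO. Its log2 fold change was -6.17 ± 0.84 (adjusted p = 3.31e-05, edgeR). grna.2 (ENSDARG00000088641) encodes a granulin, one of the small cysteine-rich peptides related to the growth factor progranulin. It had 24.6, 75.4, 14.6 and 59.0 CPM in WT and 0.129, 0.954, 0 and 0.144 CPM in KO, a log2 fold change of -6.94 ± 0.99 (adjusted p = 4.20e-05, edgeR). With a library left out this value ran from -8.50 to -6.54. The neighbouring copy in name, grna.1 (ENSDARG00000089362), had 16.5 CPM on average in WT and 9.21 CPM in KO and was not called (-0.84 ± 0.62). SLC27A1 (ENSDARG00000104949) is named for a mammalian fatty acid transport protein with acyl-CoA synthetase activity. It had 16.5, 39.9, 20.8 and 18.2 CPM in WT and 0, 1.07, 0.356 and 0 CPM in KO, with log2 fold change -5.93 ± 1.01 (adjusted p = 0.00157, edgeR). Its fold change ran from -7.56 to -5.52 with a library left out. The second gene with that symbol, ENSDARG00000006240, was at 5.27 CPM in KO and 5.47 CPM in WT on average, so the difference was seen at one copy of the pair. Reads that aligned to more than 1 place were set aside by the authors' counting, per the lines at the end of the count table, and near-identical copies such as the cyp2p, grn, cela1 and c3 genes can lose or exchange reads, so the split within these families is uncertain.

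Of the other low genes, ENSDARG00000077872, which has no symbol, had 24.5 to 38.1 CPM in WT and 0.646 to 1.44 CPM in KO (-5.0 ± 0.95). cela1.4 (ENSDARG00000043171), a gene of the pancreatic elastase family, had 8.43, 3.21, 15.5 and 15.4 CPM in WT and 0, 0, 0 and 0.718 CPM in KO, with log2 fold change -5.73 ± 1.15 (adjusted p = 0.0145, edgeR). The fold change of cela1.4 ran from -8.84 to -5.32 with a library left out. Its neighbour in name cela1.3 (ENSDARG00000043173) had log2 fold change -3.41 ± 0.83 and missed the threshold (adjusted p = 0.0672, edgeR), while cela1.2 (ENSDARG00000095462) was at 0.15 ± 0.73. Of 31 exocrine pancreas genes tested, cela1.4 was the 1 called, and their log2 fold changes had a median of -0.08, beside -0.05 over all genes. DESeq2 called 2 of them. Without the 3 libraries with the fewest genes, where 32 were tested, the median was -0.97. There 2 were called and 11 were lower at an unadjusted p under 0.05. Over all 11979 genes of that fit, 68 were called and 1196 had such a p in either direction. Without these libraries and WT replicate 1 the median of the exocrine pancreas genes was -1.23. fkbp16 (ENSDARG00000001976), named for the FK506-binding prolyl isomerases, had 222 counts over the 4 WT libraries and 1 count over the 4 KO libraries, a ratio of 216 with a 95% counting interval from 38.4 to 8574. ENSDARG00000100614, without a symbol, had 152 counts in WT and 0 in KO, and was at least 49.3-fold higher in WT when 3 counts over the KO group are taken as the limit. Its WT values were uneven, from 0.528 to 14.05 CPM. Such limits and intervals cover counting error only.

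3 genes were lower in KO without being near absence. c3b.2 (ENSDARG00000001818), a copy of complement component C3, had 18.6, 40.8, 29.6 and 31.8 CPM in WT and 4.52, 3.46, 0.356 and 8.04 CPM in KO (-2.87 ± 0.67, adjusted p = 0.0416, edgeR). si:ch211-113d11.5 (ENSDARG00000105411), a placeholder name and the most abundant of the 12 lower genes, had 406.6 to 1295 CPM in WT and 104.3 to 214.3 CPM in KO (-2.59 ± 0.58). SYNCRIP (ENSDARG00000040184), an RNA-binding protein also called hnRNP Q, had 127.6 to 178.1 CPM in WT and 57.8 to 70.5 CPM in KO (-1.23 ± 0.28).

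In the opposite direction, 4 genes were near zero in WT and measurable in KO. crb3a (ENSDARG00000102948) encodes a Crumbs protein, a small membrane protein that sets the apical side of epithelial cells. It had no counts in the 4 WT libraries and 4.65, 5.13, 4.10 and 6.46 CPM in KO, at least 50.3-fold higher with 3 counts over the WT group taken as the limit. zgc:92161 (ENSDARG00000101749), a placeholder name, had 11.6, 7.51, 18.7 and 13.6 CPM in KO and 0.843, 0, 0 and 0 CPM in WT (5.54 ± 1.15). Its fold change ran from 5.18 to 9.07 with a library left out. ENSDARG00000109678, without a symbol, had 4.29 to 19.1 CPM in KO and 0 to 0.375 CPM in WT (5.50 ± 1.17). PAPSS2 (ENSDARG00000071021) encodes an enzyme that makes the activated sulfate used by sulfotransferases. It had 11.9, 19.3, 7.83 and 9.62 CPM in KO and 0.750, 0.153, 0.352 and 1.82 CPM in WT, a log2 fold change of 3.94 ± 0.84 (adjusted p = 0.0183, edgeR). The other gene with the symbol PAPSS2, ENSDARG00000056600, had the opposite sign and was not called (-1.22 ± 0.74).

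Enzymes of intermediary metabolism followed. AGXT2 (ENSDARG00000100709) is a mitochondrial aminotransferase that in mammals breaks down dimethylarginines and beta-aminoisobutyrate. It had 73.6, 33.5, 84.9 and 100.4 CPM in KO and 11.6, 10.8, 10.4 and 15 CPM in WT, a log2 fold change of 2.61 ± 0.43 (adjusted p = 0.000892, edgeR). Its lowest KO library was above its highest WT library by more than the whole WT range. PCK1 (ENSDARG00000013522) encodes phosphoenolpyruvate carboxykinase, which commits carbon to gluconeogenesis. It had 251.2, 307.1, 125.9 and 178.4 CPM in KO and 109.0, 59.7, 25.7 and 34.3 CPM in WT (1.91 ± 0.40, adjusted p = 0.0164, edgeR), with the groups close at WT replicate 1. The mitochondrial form pck2 (ENSDARG00000020956) was not called (0.39 ± 0.32). adh8b (ENSDARG00000024278), an alcohol dehydrogenase, had 113.4, 283.7, 83.9 and 96.7 CPM in KO and 47.3, 46.4, 21.1 and 29.9 CPM in WT (1.99 ± 0.42). SPNS1 (ENSDARG00000011925), which in mammals exports lysophospholipids from lysosomes, had 42.2 to 148.9 CPM in KO and 8.96 to 29.6 CPM in WT (2.27 ± 0.46).

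The other higher genes encode small proteins, and several belong to mitochondria or to redox chemistry. TXN (ENSDARG00000031435), the cytosolic thioredoxin that reduces protein disulfides, had 580.8, 477.5, 362.7 and 324.4 CPM in KO and 115.0, 153.8, 179.7 and 182.0 CPM in WT. All KO libraries stood well above all WT libraries (1.47 ± 0.27, adjusted p = 0.00442, edgeR). The second thioredoxin gene, txnb (ENSDARG00000044125), was not called and had the opposite sign (-0.43 ± 0.46). ndufc1 (ENSDARG00000103101), a subunit of respiratory complex I, had 290.0, 207.3, 138.4 and 162.1 CPM in KO and 36.3, 57.6, 54.4 and 60.0 CPM in WT (1.94 ± 0.34, adjusted p = 0.0024, edgeR). cox7b (ENSDARG00000115557), a subunit of cytochrome c oxidase, had 1952, 1281, 1257 and 1402 CPM in KO and 416.8, 758.8, 787.9 and 841.3 CPM in WT (1.07 ± 0.24, adjusted p = 0.0341, edgeR). The cox7b call ended on leaving out any of 6 libraries, with a highest adjusted p of 0.286 in edgeR without KO replicate 1.

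UQCC6 (ENSDARG00000045797), an assembly factor of complex III in mammals, had 51.7 to 135.0 CPM in KO and 17.4 to 38.2 CPM in WT (1.81 ± 0.38). smdt1b (ENSDARG00000098852), the zebrafish gene for a subunit of the mitochondrial calcium uniporter, had 62.6 to 104.5 CPM in KO and 17.1 to 43.2 CPM in WT (1.5 ± 0.34). DBI (ENSDARG00000026369), the acyl-CoA binding protein, had 975.7, 753.5, 421.7 and 1011 CPM in KO and 277.5, 319.2, 278.0 and 375.8 CPM in WT (1.34 ± 0.31). FKBP2 (ENSDARG00000044540), a prolyl isomerase of the endoplasmic reticulum, had 102.2 to 216.5 CPM in KO and 36.3 to 58.6 CPM in WT (1.47 ± 0.34). si:dkey-96g2.1 (ENSDARG00000097725), a placeholder name, had 70.0 to 131.2 CPM in KO and 18.7 to 40.1 CPM in WT (1.52 ± 0.34). For these 5 genes and cox7b the adjusted p lay between 0.0164 and 0.0382 in edgeR, and for each of them KO replicate 1 was the library whose removal gave the highest adjusted p, between 0.19 and 0.378.

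The same genotype difference was measured in the other 24 libraries, which share with this comparison the fitted spread but no sample. Of the 28 genes, 26 had the same sign at 24 h under DMSO and 10 of them were called, where 32 genes were called over all genes (0.281%). Under APAP 27 had the same sign at 12 h, with 17 called (254 over all genes, 2.23%), and 28 had the same sign at 24 h, with 10 called (136 over all genes, 1.19%). Over all genes a value below 0 was found for 52.3% at 24 h under DMSO, 61.2% at 12 h under APAP and 54.7% at 24 h under APAP. The 10 genes called at both times under DMSO are 35.7% of the 12 h calls and 31.2% of the 24 h calls. 6 genes were called in all 4 comparisons: zgc:171470, cyp2p9, si:dkeyp-73d8.6 and SLC27A1 on the lower side, and AGXT2 and ENSDARG00000109678 on the higher side.

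Of these 6 genes, 3 are given with their levels at 24 h under DMSO, where the groups stayed apart. zgc:171470 had 0 to 0.799 CPM in KO and 145.3 to 388.7 CPM in WT at 24 h (log2 fold change -9.95 ± 0.96), and its APAP values were -8.62 at 12 h and -9.50 at 24 h. cyp2p9 had 2.17 to 7.19 CPM in KO and 46.7 to 64.1 CPM in WT at 24 h (-3.40 ± 0.52), with -7.28 and -4.47 under APAP. AGXT2 had 95 to 115 CPM in KO and 8.02 to 13.4 CPM in WT at 24 h (3.19 ± 0.44), with 2.70 and 2.94 under APAP.

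The lower and the higher genes recurred with fitted values of different size, as they already had at 12 h. Most lower genes had larger log2 differences at 12 h than most higher genes. The medians given here therefore do not show which side recurred more strongly. All 12 lower genes had the same sign in each of the 3 other comparisons, with median log2 differences of 3.59, 4.63 and 3.87 in the 12 h direction. Of the 16 higher genes, 14, 15 and 16 kept their sign, with medians of 1.18, 1.46 and 0.72. The exceptions at 24 h under DMSO were PCK1 (-0.25 ± 0.39) and smdt1b (-0.37 ± 0.34). PCK1 had 225.2 to 595 CPM in KO and 241.1 to 652.3 CPM in WT at 24 h, so both genotypes were within or above the KO range of 12 h. PAPSS2 (ENSDARG00000071021), too, was no longer near zero in WT at 24 h, with 5.12 to 13.8 CPM against 7.81 to 17.8 CPM in KO (0.60 ± 0.73), and its APAP value at 12 h was -0.26.

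**Figure D2:**
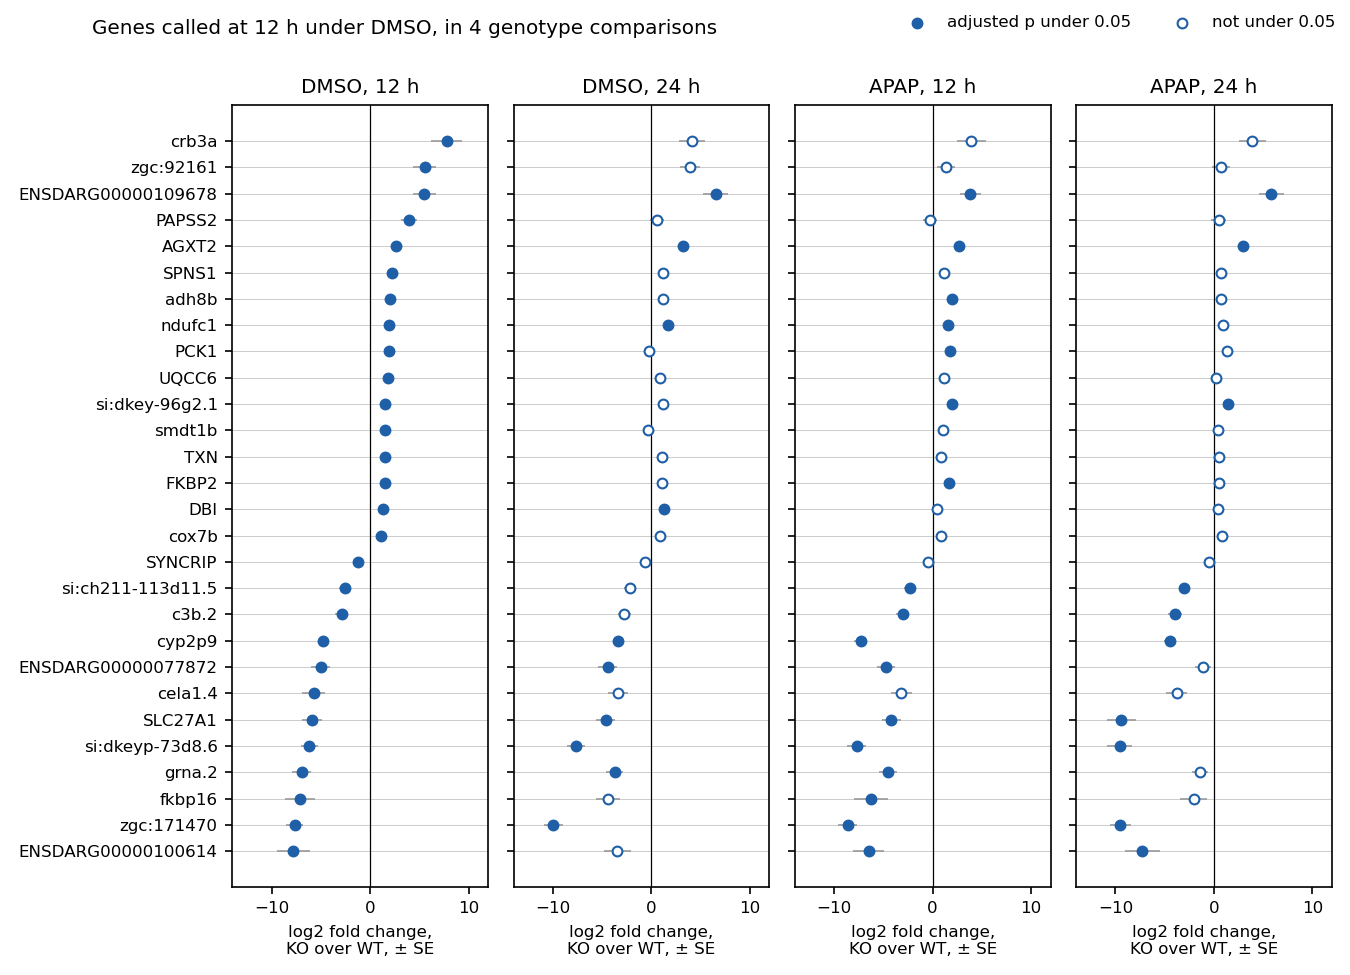
Log2 fold changes, KO over WT, with SE bars for the 28 genes called under DMSO at 12 h, in each of the 4 genotype comparisons. Filled points have an adjusted p under 0.05, 10, 17 and 10 of them in the panels after the first. The fitted values of crb3a and ENSDARG00000100614 have no counts on one side in the first panel and are not fold sizes. Some values in the first panel moved by more than their SE bar when a library was left out. These include zgc:171470, cela1.4, zgc:92161, SLC27A1, grna.2, adh8b and PCK1.

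Whether the genotype difference itself changed between 12 h and 24 h under DMSO was tested as an interaction. edgeR called 0 of 11384 genes (0%), with 374 at an unadjusted p under 0.05 (3.29%) and a smallest adjusted p of 0.660. limma voom called 0 and DESeq2 called 5, which were zgc:65894, SLC7A3, MYH7, pou3f3b and smdt1b. Of these, MYH7 and pou3f3b had no counts in any KO library at 24 h, and their WT levels at 12 h were uneven. MYH7 had 0, 0, 25.7 and 12.8 CPM there, and pou3f3b had 29.4, 0, 0 and 0.304 CPM. The smallest p in edgeR belonged to SLC7A3 (ENSDARG00000020645), a cationic amino acid transporter gene whose genotype difference was 1.1 ± 0.42 at 12 h and -1.32 ± 0.42 at 24 h. For PCK1 the difference between the times was -2.16 ± 0.55 and for smdt1b -1.88 ± 0.48, both with an adjusted p of 0.660 in edgeR. A change of the genotype difference with time was therefore not called for either gene in edgeR.

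Known Nrf2 targets were examined as a list. Of 63 target genes, 52 passed the filter on low counts and edgeR called 1 at 12 h, beside 0.246% of all genes. It was TXN, which was higher in KO. DESeq2 called 3, all higher, where it called 96 of 11384 genes. Without the 3 libraries with the fewest genes 2 were called, where 68 of 11979 genes were called. At an unadjusted p under 0.05, 5 were higher and 3 lower, beside 3.17% and 3.38% of all genes (6.55% in either direction). The median log2 fold change was 0.37, beside -0.05 over all genes, and 37 of the 52 had a value above 0, beside 47.2% of all genes. The list mean per library, in log2(CPM + 2), was 5.28, 5.48, 5.03 and 5.14 in KO and 5.0, 4.95, 4.86 and 5.11 in WT, and these overlap. The positive median did not recur in the other libraries. At 24 h under DMSO it was -0.10 (-0.05 over all genes), with 24 of the 52 above 0 and 2 called lower. Under APAP it was -0.70 at 12 h (-0.30 over all genes), with 12 called lower, where 2.23% of all genes were called. At 24 h under APAP it was -1.05 (-0.11 over all genes), with 15 called lower and 1 higher, beside 1.19% of all genes.

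Enzymes that make or recycle glutathione had log2 fold changes within 1 SE of 0. GCLC (ENSDARG00000013095) and GCLM (ENSDARG00000018953), the subunits of glutamate-cysteine ligase, had log2 fold changes of 0.41 ± 0.44 and 0.37 ± 0.72. GSR (ENSDARG00000019236), glutathione reductase, had 0.19 ± 0.37. For both GCLC and GCLM the highest library was KO replicate 2, with 28.6 and 16 CPM against 7.89 to 11.4 and 2.97 to 4.45 in the other KO libraries. Conjugating and quinone-reducing enzymes had positive values that were not called: gstp1.2 (ENSDARG00000104068), a glutathione transferase, had 0.46 ± 0.34 and NQO1 (ENSDARG00000010250), a quinone reductase, had 0.68 ± 0.39. MGST3 (ENSDARG00000102744), a microsomal glutathione transferase, had 440.7, 551.2, 364.3 and 359.2 CPM in KO and 199.2, 165.6, 200.2 and 181.1 CPM in WT. Its groups did not overlap, yet it missed the threshold (1.2 ± 0.29, adjusted p = 0.068, edgeR), as did AKR1B1 (ENSDARG00000006215), aldose reductase (1.39 ± 0.38, adjusted p = 0.144, edgeR).

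Among the targets with negative values was HMOX1, and its groups overlapped. HMOX1 (ENSDARG00000027529), heme oxygenase, had 1.81, 5.60, 1.07 and 0.287 CPM in KO and 22.4, 21.8, 1.58 and 4.86 CPM in WT. Only WT replicates 1 and 2 stood above the KO libraries, and the log2 fold change of -2.51 ± 0.89 was not called (adjusted p = 0.417, edgeR). HMOX1 was also lower in KO in the other libraries, with -3.29 ± 0.97 at 24 h under DMSO. Under APAP it had -2.10 ± 0.91 at 12 h and -2.84 ± 0.91 at 24 h. Its groups did not overlap in these other comparisons, and it was called in none of them. ptgr1.1 (ENSDARG00000024877), prostaglandin reductase, and EPHX1 (ENSDARG00000042854), microsomal epoxide hydrolase, had -1.38 ± 0.56 and -1.22 ± 0.57 without overlap, and neither was called. Of the target genes fixed by name, both MAFG genes, SRXN1 and slc7a11 were near 0 counts in all 8 libraries and did not pass the filter.

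3 thioredoxin-system genes were called at 24 h and not at 12 h under DMSO. prdx1 (ENSDARG00000058734), a peroxiredoxin, had log2 fold change -0.31 ± 0.35 at 12 h, with 22.3 to 70.5 CPM in KO and 49 to 68.8 CPM in WT, and -1.76 ± 0.37 at 24 h. The more abundant gene with that symbol, PRDX1 (ENSDARG00000025350), had -0.11 ± 0.28 at 12 h and 0.01 ± 0.28 at 24 h. It was called at neither time. TXNRD3 (ENSDARG00000100374), a thioredoxin reductase, had -0.48 ± 0.27 at 12 h and -1.54 ± 0.28 at 24 h. txnb had -0.43 ± 0.46 and -2.20 ± 0.49. The difference between the times was not called for any of the 3 in edgeR, so a genotype difference confined to 24 h is not shown.

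Most nuclear genes of oxidative phosphorylation had positive values. Of 81 genes tested (85 listed), 72 had a log2 fold change above 0, beside 47.2% of all genes, with a median of 0.48 beside -0.05. In edgeR cox7b was the 1 called member and DESeq2 called 5, all higher, while at an unadjusted p under 0.05 edgeR gave 35 higher and 1 lower, beside 3.17% and 3.38% of all genes. The levels of 25 members were higher in KO without overlap between the groups, where 5.82% of all genes did not overlap in either direction. The list does not hold ndufc1, UQCC6 or smdt1b.

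Positive values were found in each complex. Values above 0 were found for 32 of 36 complex I genes (median 0.46), 3 of 4 complex II genes (0.36), 9 of 9 complex III genes (0.55), 12 of 16 complex IV genes (0.52) and 15 of 15 ATP synthase genes (0.50). The members with the smallest p after cox7b were cox6b2 (ENSDARG00000037860, 0.99 ± 0.25), COX7C (ENSDARG00000104537, 1.11 ± 0.29) and ATP5PF (ENSDARG00000014313, 1.06 ± 0.29), none called, with adjusted p between 0.11 and 0.141 in edgeR. NDUFB2 (ENSDARG00000045490), a complex I subunit, went the other way (-1.46 ± 0.45, adjusted p = 0.234, edgeR). The 13 genes of the mitochondrial genome had a median of 0.27, with 10 above 0, and without WT replicate 1 a median of 0.024, with 7 above 0.

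The list mean per library, in log2(CPM + 2), was 8.01, 7.85, 7.97 and 7.84 in KO and 7.07, 7.48, 7.54 and 7.62 in WT at 12 h under DMSO. The groups did not overlap, and WT replicate 1 was the lowest. It is the library with the lowest share of mitochondrial counts and of assigned reads, and the part of these differences between libraries in the result was not tested. Without it, 68 of 81 members were above 0 with a median of 0.40, 18 were higher at an unadjusted p under 0.05, and no member was called. Over all genes, 750 of 11755 had such a p in either direction in that fit. Without WT replicate 1 and the 3 libraries with the fewest genes, 62 were above 0 with a median of 0.40. In that fit 1 member was called, as lower, where 45 of 12573 genes were called. In the libraries that this comparison did not use, the list mean was 7.96 to 8.12 in KO and 7.41 to 7.56 in WT at 24 h under DMSO, and 7.69 to 8.0 in KO and 7.09 to 7.57 in WT at 24 h under APAP, both without overlap. At 12 h under APAP it was 7.58 to 8.10 in KO and 7.23 to 7.66 in WT, and the KO library that overlapped was the one with the fewest genes in the series. The median log2 fold change of the 81 genes was 0.55 at 24 h under DMSO, where ATP5F1D, atp5mc1 and ATP5F1B were called as higher in KO.

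**Figure D3:**
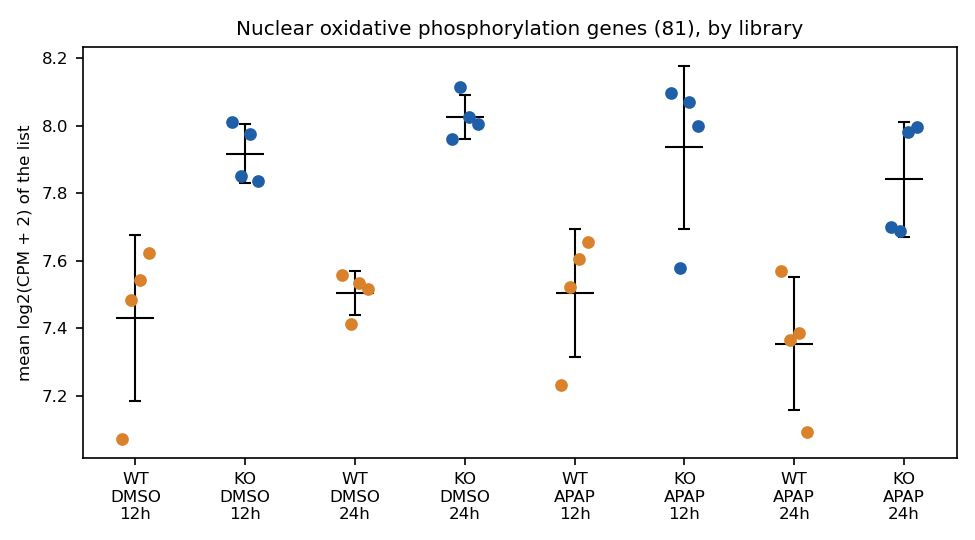
Mean log2(CPM + 2) over the 81 nuclear oxidative phosphorylation genes in each of the 32 libraries, with group means and SD bars (n = 4). The axis does not start at 0, and the KO libraries (blue) lie above the WT libraries (orange) of the same treatment and time except for the KO library at 7.58 under APAP at 12 h.

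Other lists of liver functions had few or no called members at 12 h. Of 27 complement genes tested, edgeR called 1 (c3b.2), beside 0.246% of all genes, and DESeq2 called 2, both lower. At an unadjusted p under 0.05, 5 were lower and 0 higher, beside 3.38% and 3.17% of all genes. Their median log2 fold change was -0.46, beside -0.05 over all genes. The second copy c3b.1 (ENSDARG00000093068) had -2.99 ± 0.96 and cfh (ENSDARG00000100442), complement factor H, had -1.33 ± 0.46, neither called. The abundant C3 copies c3a.1 (ENSDARG00000012694) and c3a.2 (ENSDARG00000087359) had -0.62 ± 0.31 and -0.84 ± 0.41. Without WT replicate 1 the median was -0.69 and no complement gene was called, and without the 3 libraries with the fewest genes it was -0.29 and none was called. Without WT replicate 1 and these 3 libraries the complement median was -0.79. In that fit 30 complement genes were tested and 1 was called, as lower, where 45 of 12573 genes were called. At an unadjusted p under 0.05, 9 were lower and 1 higher there, beside 1102 of all genes in either direction. Plasma protein genes of hepatocytes, such as those for clotting factors and fibrinogen, had 0 of 62 called by edgeR and by DESeq2, with 1 higher and 5 lower at an unadjusted p under 0.05, and a median of -0.13. Without WT replicate 1 the median was -0.37, with 12 lower, and without it and the 3 libraries with the fewest genes it was -0.49, with 19 lower. Over all genes, 750 of 11755 and 1102 of 12573 had such a p in either direction in these fits.

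Xenobiotic metabolism genes moved both ways, with cyp2p9 lower and adh8b higher of 70 tested, and a median of 0.09, which was 0.37 without the 3 libraries with the fewest genes. cyp2aa1 (ENSDARG00000099003), a further P450 of family 2, had 9.11 ± 5.59 CPM (SD) in KO and 31.5 ± 10.8 CPM in WT without overlap and missed the threshold (-1.79 ± 0.58, adjusted p = 0.292, edgeR). CYP1A1 (ENSDARG00000098315), the P450 that reports aryl hydrocarbon receptor activity, ranged from 31.5 to 300.0 CPM in KO and from 36.8 to 229.9 CPM in WT. Its groups overlapped over nearly their whole range (0.71 ± 0.52). Of 50 amino acid catabolism genes AGXT2 was called, and hpda (ENSDARG00000018351), an enzyme of tyrosine breakdown, had -2.37 ± 0.70 without being called (adjusted p = 0.203, edgeR).

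Of 37 genes of glucose and glycogen metabolism PCK1 was called. The glycolytic gene pgam1a (ENSDARG00000005423), phosphoglycerate mutase, had 63.7 ± 20.2 CPM (SD) in KO and 155 ± 52.1 CPM in WT and missed the threshold at 12 h (-1.28 ± 0.32, adjusted p = 0.091, edgeR), while it was called at 24 h (-1.74, adjusted p = 0.00522, edgeR). Cholesterol synthesis had 0 of 21 called by edgeR and by DESeq2, 3 higher at an unadjusted p under 0.05 and a median of 0.35, led by MSMO1 (ENSDARG00000055876, 2.46 ± 0.88). That median was 0.08 without WT replicate 1 and 0.96 without the 3 libraries with the fewest genes. In the latter fit 9 were higher at an unadjusted p under 0.05 and 1 was called. Over all 11979 genes of that fit, 1196 had such a p in either direction and 68 were called. Without all 4 of these libraries the median of the cholesterol genes was 1.11.

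edgeR called no member in 13 further pathway lists, whose medians lay between -0.27 and 0.27. At an unadjusted p under 0.05 each had 0 to 9 higher and 0 to 4 lower members, and DESeq2 called 1 gene, in the acute phase list. Ribosomal protein genes had 0 of 76 called, 9 higher at an unadjusted p under 0.05 and a median of 0.10, proteasome genes had 0 of 47 and 0.13, and cell cycle genes had 0 of 68 and -0.05. Fatty acid oxidation had 0 of 34 and -0.03, fatty acid synthesis 0 of 23 and -0.27, and bile acid genes 0 of 19 and 0.27. Endoplasmic reticulum stress genes had 0 of 34 and -0.25, heat shock and chaperone genes 0 of 26 and -0.01, and p53 pathway genes 0 of 25 and 0.07. Acute phase and inflammation had 0 of 32 and -0.27, stress-induced transcription factors 0 of 27 and -0.21, and circadian genes 0 of 30 and -0.11. Vitellogenin and estrogen-response genes, with 4 tested, had a median of -0.04. Several of these medians turned sign when libraries were left out. Without WT replicate 1 this held for ribosomal protein genes (-0.06, with 2 higher), stress-induced transcription factors (0.03) and vitellogenin and estrogen-response genes (1.51). Without the 3 libraries with the fewest genes it held for circadian (0.12), fatty acid oxidation (0.26), heat shock (0.13) and vitellogenin genes (0.42). Without all 4 libraries the ribosomal median was -0.23, with 10 lower and 0 higher at an unadjusted p under 0.05. Over all genes, 1102 of 12573 had such a p in either direction in that fit. In the other genotype comparisons the ribosomal median was 0.29 at 24 h under DMSO, 0.32 at 12 h under APAP and 0.33 at 24 h under APAP. There 69, 72 and 70 of the 76 genes were above 0 and none was called. The medians over all genes were -0.05, -0.30 and -0.11.

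**Figure D4:**
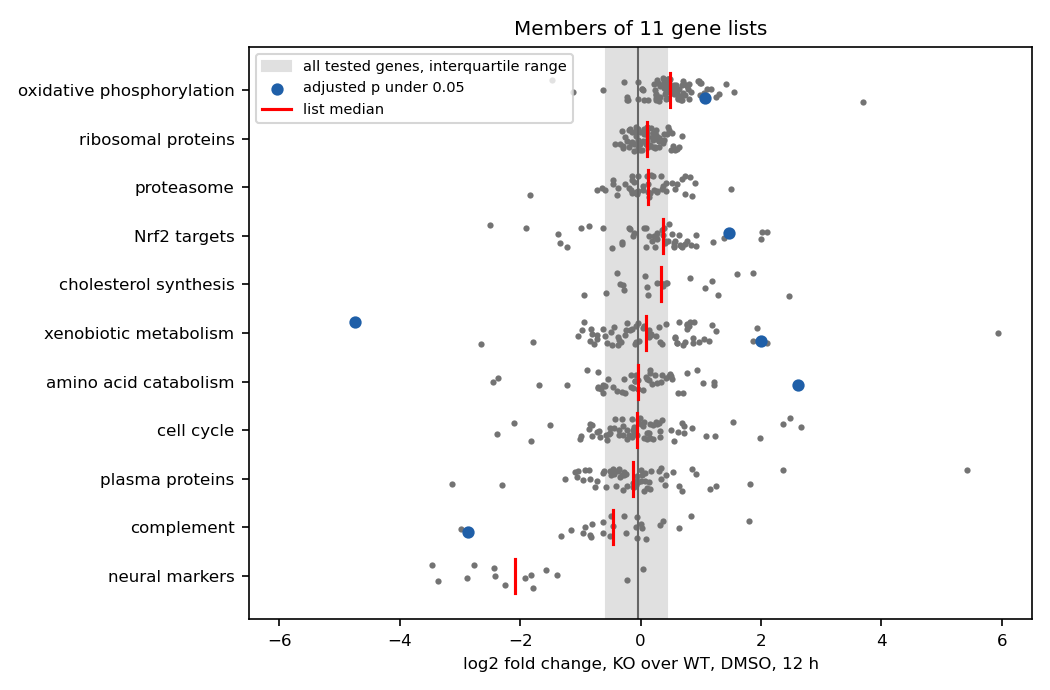
Log2 fold changes, KO over WT under DMSO at 12 h, of the tested members of 11 gene lists, with 1 point per gene, the list median in red and the interquartile range of all tested genes in grey. The oxidative phosphorylation members lie mostly right of 0 (median 0.48), and the neural markers lie left of 0 (median -2.09), which shrinks to -0.44 without WT replicate 1.

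Markers of cells outside the liver were counted, since a dissected larval liver can carry neighbouring tissue and since fewer cells of a type and less RNA per cell cannot be told apart in bulk RNA. Exocrine pancreas markers took 1.98% to 8.61% of counts in KO and 1.77% to 7.65% in WT. Intestine markers took 0.657% to 1.79% and 0.869% to 1.47%, and red blood cell markers 0.13% to 0.278% and 0.109% to 0.329%. Skeletal muscle markers took 0.663% to 1.26% in KO and 0.413% to 2.04% in WT. All 4 ranges overlapped between the genotypes. Of 23 intestine genes tested, 18 had values above 0, with a median of 0.41 beside -0.05 over all genes. edgeR called 0, with 2 higher and 1 lower at an unadjusted p under 0.05, and DESeq2 called 1, as lower. Without WT replicate 1 the median was 0.80, with 7 higher and 2 lower at such a p, beside 750 of 11755 genes. At 24 h under DMSO the intestine median was -0.07.

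Neural markers had negative values, and their size depended on a single library. Of 14 neural genes tested, 13 had values below 0 with a median log2 fold change of -2.09, 6 were lower at an unadjusted p under 0.05, and none was called by edgeR or DESeq2. Their share of counts was 0.130% in WT replicate 1 and 0.0125% to 0.0334% in the other 7 libraries. Without WT replicate 1 the median was -0.44, and without it and the 3 libraries with the fewest genes it was -1.04, with 2 of 15 above 0. At 12 h under APAP, in other libraries, the median was -1.15, with 1 of 14 above 0, beside -0.30 over all genes. At 24 h it was -0.62 under DMSO, with 3 of 14 above 0, beside -0.05 over all genes. Under APAP at 24 h it was -0.36, with 4 of 14 above 0, beside -0.11 over all genes. Endocrine pancreas markers had a median of -0.94 with 1 of 9 above 0, and none was called by edgeR or DESeq2 or had an unadjusted p under 0.05. Of the 16 marker lists, 1 held a gene called by edgeR, cela1.4 among the exocrine pancreas genes. Markers at 0 counts in all 8 libraries included PAX8 and WT1 of kidney, gp9 and mpl of thrombocytes, and ighm of lymphocytes.

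Because a mutant line can carry alleles linked to the mutated gene, the order of genes along the chromosomes was used to look near both Nrf2 genes. Gene order came from the RefSeq annotation of assembly GRCz12tu, which is not the build of the count table, so only neighbours and no positions are given. Of the 80 coding genes nearest to nfe2l2a, 17 were tested and 1 was called, DBI, which is 19 genes away (5.88%, beside 0.246% of all genes). DBI was also the 1 of these 17 with an unadjusted p under 0.05 (5.88%, beside 6.55% of all genes). Of the 80 nearest to nfe2l2b, 25 were tested and 0 were called by edgeR. There 3 had an unadjusted p under 0.05 (12%, beside 6.55% of all genes). Among the 231 pairs of the 22 called genes that could be placed, 1 pair lay within 40 genes of each other. It was crb3a and zgc:92161, at 9 genes apart. The share of such pairs over all genes was not computed, so this pair is not read as a result. Whether linked alleles take part in any of the differences was not tested.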

How the data were processed

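The authors deposited 1 table of raw counts per library for 32519 Ensembl genes, of which 29200 have a symbol in the gene name table used. The submitters' processing notes name bcl2fastq, Trim Galore, HISAT2 and HTSeq and the build GRCz11. The strand setting is not given in the sources used here. The 5 closing lines of the table, for reads given to no gene, were used for library quality alone. Libraries of a compared group were never copies (lowest chi-square per degree of freedom 32.7).

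Genes kept by filterByExpr over the 8 groups (11384) were scaled by TMM and fitted in edgeR 4.0.16 (R 4.3.3) with 1 mean per group over all 32 libraries, which share one estimate of spread (24 residual degrees of freedom). Tests were two-sided quasi-likelihood F-tests, adjusted over all tested genes, and SE was taken as |log2 fold change| divided by the root of F. The fit was also run on counts drawn from its own fitted model, which cannot check how it handles the uneven libraries described here. No result is drawn from that run. Nothing says that the pools came from separate clutches, so p-values measure a spread between pools. This spread was estimated over all 8 groups and not in the compared libraries alone. List means per library use log2(CPM + 2), list medians are medians of log2 fold changes, and group means of a gene are means of CPM.

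The members, gene lists and tests were chosen with earlier results of these data known. Named genes were to have an adjusted p under 0.05, no overlap, a real symbol and a log2 mean CPM of 3 or more, up to 14 in each direction, plus called list members and 22 genes fixed by name. Other called genes and list members that were not called were named after their values were seen. The 37 lists (21 pathways, 16 marker sets) were matched by symbol, and ela3l was moved out of the biliary markers by hand.

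The 17 settings were DESeq2 1.42.0, limma voom (limma 3.58.1), RLE scaling, no filter, fits to the compared groups alone, with the replicate block, with both, without the 3 libraries with the fewest genes, without these and WT replicate 1 (added after seeing the data), and each of the 8 libraries left out. No sequence is printed.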

Additional observations from a re-analysis of the deposited data

Results flagged for a closer look

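In 134 groups of 4 library values, 12 held 1 library farther from the other 3 than Dixon's 95% limit allows. Chance would give about 1 in 20, or 6.7, for normally distributed values in independent groups. CPM and shares of counts were used untransformed and the groups share libraries, so the 12 are not read as an excess. Of these, 5 fell in KO replicate 2: adh8b at 283.7 CPM (other KO libraries 83.9 to 113.4), grna.2 at 0.954 CPM (0 to 0.144), GCLC at 28.6 CPM (7.89 to 11.4), GCLM at 16 CPM (2.97 to 4.45) and kidney markers at 0.0938% of counts (0.0260% to 0.0285%).

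In WT replicate 2, cyp2p9 was at 125.1 CPM (42.6 to 55 in the other WT libraries) and CYP1A1 at 229.9 CPM (36.8 to 48.9). In WT replicate 1, si:dkey-96g2.1 was at 18.7 CPM (36.7 to 40.1), and in WT replicate 3 GCLC was at 7.22 CPM (11.6 to 11.7). In KO replicate 1, FKBP2 was at 216.5 CPM (102.2 to 121.5). Exocrine pancreas markers took 8.61% of counts in KO replicate 3 (1.98% to 2.94%), and neural markers took 0.0125% in KO replicate 4 (0.0204% to 0.0215%). What sets these values apart was not tested.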

How the results depend on the processing

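Of the 28 calls at 12 h under DMSO, all 28 were also called with DESeq2 (96 calls), limma voom (81) and RLE scaling (29). In a fit to these 8 libraries alone the count was 13, with 3 higher and 10 lower in KO. Only 10 of the 28 were among these 13. The count was 74 without the filter on low counts and 68 after the 3 libraries with the fewest genes were dropped. It was 45 without these and WT replicate 1, a setting added after seeing the data. With a library left out it was 12 to 23. At 24 h under DMSO the 32 calls became 101 with DESeq2, 75 without the filter, 408 with only the compared groups and 171 without the 3 libraries, and 13 to 25 with a library left out. For the difference between the times the 0 calls became 5 with DESeq2, 11 without the filter, 1 without the 3 libraries and 3 without these and WT replicate 1, and stayed 0 to 0 with a library left out. The cause of these shifts was not tested.

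Same-numbered KO and WT libraries at 12 h had correlations of deviations of 0.04, -0.13, 0.02 and 0.21. Differently numbered ones had -0.22 to 0.28. These values show no pairing by replicate number, but so few of them cannot exclude one. With the replicate block the counts were 27 at 12 h, 34 at 24 h and 0 for the difference. With the block and only the compared groups they were 3, 160 and 0, and the 3 at 12 h were all lower in KO. For the 103 named genes, values were counted once per gene and setting. Of these values 1545 stayed the same, 156 lost their call, 24 gained one and 0 reversed. RLE scaling moved the median of all genes at 12 h from -0.05 to -0.10, and 70 of the 81 oxidative phosphorylation genes stayed above 0. Depth limits genes of a few CPM, where 1 library can decide a call.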
